A study of Mus musculus with 8 samples.

Results

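Bmi1 and 7 genes of the same protein complexes were followed through a forced-expression experiment: Pcgf1, Pcgf2, Pcgf3, Pcgf5 and Pcgf6, the paralogs of Bmi1, and Ring1 and Rnf2, the RING partners of all of them. Every probe set that the array annotation gives to one of these symbols alone was taken, which made 20 probe sets for 8 genes, out of 18193 genes with such a probe set on the array. The cells were Dlk-positive hepatoblasts, the fetal liver precursors of hepatocytes and bile duct cells, from Ink4a-Arf-null mouse embryos of day 14.5. There were 4 arrays labelled Bmi1, described as cells transduced with Bmi1, and 4 arrays labelled control, described as cells transduced with EGFP, numbered 1 to 4 in each group. Both groups lacked Ink4a-Arf, the locus of the senescence genes that Bmi1 is best known for repressing, so neither is a wild type. A magnetic bead sort came first, transduction followed after 12 to 18 h, and all cells were grown in 50 ng/ml hepatocyte growth factor and 20 ng/ml epidermal growth factor. Flow cytometry at culture day 28 isolated the transduced cells, and the RNA of 10000 cell equivalents was amplified in a two-cycle protocol before hybridisation. The series text speaks of 4 independent experiments, and the labels do not say whether a number marks one of them. The Bmi1 signal ran against the labels, as the first result shows, so groups are named as arrays labelled Bmi1 and arrays labelled control throughout.

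On GRCm38.p6, RefSeq places Bmi1 at chr2:18677018-18686629, Pcgf1 at chr6:83077552-83080855, Pcgf2 at chr11:97688821-97702434 and Pcgf3 at chr5:108461259-108506976. Pcgf5 and Pcgf6 share a chromosome, at chr19:36348329-36460970 and chr19:47033617-47050939. Ring1 lies at chr17:34020792-34024680 and Rnf2 at chr1:151469398-151500991.

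Polycomb repressive complex 1 (PRC1) places a single ubiquitin on histone H2A and helps to keep developmental genes silent. Its catalytic core pairs a RING ligase, Ring1 or Rnf2 (also called Ring1b), with one PCGF protein, and the PCGF protein decides which further subunits join. Bmi1 (Pcgf4) and Pcgf2 (Mel18) build the canonical complexes with Cbx and Phc proteins, while Pcgf1, Pcgf3, Pcgf5 and Pcgf6 build variant complexes that contain Rybp or Yaf2. In liver and in blood, Bmi1 is known for sustaining the self-renewal of stem and progenitor cells.

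The promoters of Bmi1 and of its closest paralog Pcgf2 are shown because they were the only member windows with the E-box CACGTG, a motif bound by Myc family proteins, which are described as regulators of Bmi1. Each window runs from 250 bases before to 50 bases after a transcription start in the RefSeq table on GRCm38.p6, 5′ to 3′ on the strand of the gene, with the E-box in capitals.
Bmi1, chr2:18676768-18677067, plus strand: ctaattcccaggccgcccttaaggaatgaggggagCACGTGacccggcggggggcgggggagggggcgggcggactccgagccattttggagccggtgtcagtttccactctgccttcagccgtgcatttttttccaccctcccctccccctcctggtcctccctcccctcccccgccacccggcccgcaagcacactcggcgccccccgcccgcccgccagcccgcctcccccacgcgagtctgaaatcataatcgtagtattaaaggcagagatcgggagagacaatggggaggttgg
Pcgf2, chr11:97699599-97699898, minus strand: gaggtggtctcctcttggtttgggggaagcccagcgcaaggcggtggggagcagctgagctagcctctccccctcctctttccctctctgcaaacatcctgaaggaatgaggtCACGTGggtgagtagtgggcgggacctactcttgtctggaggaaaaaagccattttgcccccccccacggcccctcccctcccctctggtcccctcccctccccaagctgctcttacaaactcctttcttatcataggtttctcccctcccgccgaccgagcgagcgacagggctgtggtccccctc
The E-box, a palindrome that reads the same on both strands, lay at positions -215 to -210 from the start used for Bmi1 and at -137 to -132 from that used for Pcgf2. For Bmi1 that start is the 5′ end of the gene as given above, while for Pcgf2 it lies inside the gene, downstream of its 5′ end. The E-box was found in 2 of 9 windows of 7 member genes, while 7.15% of all 32851 promoter windows of this length held it. Pcgf1 had no window and was not searched, and Pcgf5 had more than 1. The E2F motif TTTCCCGC, searched on both strands and not overlapping the E-box, was in 0 of the 9 windows and in 1.07% of all windows. The GC content of the 9 windows ran between 48.3% and 78.7%, and the median of all windows was 52.7%. These letters describe the windows only, and no binding was measured.

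Signals are the deposited intensities on a linear scale on which the trimmed mean of every array is 100. A probe set was called above background on an array where it exceeded the level under which 95% of 27 Bacillus control probe sets lay. Their RNA was taken not to have been added, and the background level was between 4.09 and 9.97. Of the 20 probe sets, 14 were above background on all 8 arrays, 4 on some and 2 on none, and each of the 8 genes had at least 1 probe set above it on all arrays. Groups were compared with limma, a linear model fitted across all probe sets, on log2(signal + 3.78), with p-values adjusted over 27022 probe sets whose mean lay at or above the 40th percentile, and a probe set passed where its adjusted p was under 0.05. Of the member probe sets, 15 entered that test and covered all 8 genes, and 5 were too dim. The hepatocyte and hepatoblast markers, among them Alb, Afp, Ttr and Hnf4a, were above background for 11 of 11 genes on every array. The hybridisation control BioC (3′ probe set) read between 198 and 274 on replicates 1 and 2 of both groups and between 97.0 and 118.9 on replicates 3 and 4, so the numbers fall into 2 sets of arrays that each hold both groups. Both the comparison within those sets and the comparison within each number are given where they matter.

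Bmi1 itself, the introduced gene, read lower on the arrays labelled Bmi1 than on the arrays labelled control of the same number, on both of its probe sets. Probe set 1417493_at read 318, 273, 328 and 197 on the arrays labelled Bmi1 in the order of their numbers, against 802, 395, 568 and 306 on the arrays labelled control. Control replicate 1 was the highest array and Bmi1 replicate 4 the lowest, and the groups overlapped, since control replicate 4 lay below Bmi1 replicates 1 and 3. The mean was 279 ± 60.0 in arrays labelled Bmi1 and 518 ± 218 in arrays labelled control (SD, n = 4 each). The ratio of the labelled Bmi1 array to its control was 0.397, 0.691, 0.578 and 0.642 in pairs 1 to 4.

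The other probe set, 1448733_at, carries the same transcript accession in the annotation and read 121, 107, 110 and 63.4 on the arrays labelled Bmi1, against 402, 156, 220 and 85.4 on the arrays labelled control. Here too control replicate 1 was highest and Bmi1 replicate 4 lowest, and control replicate 4 lay inside the range of the arrays labelled Bmi1. The ratios within pairs 1 to 4 were 0.302, 0.683, 0.4996 and 0.743. The signal therefore goes against the labels. Whether labels were exchanged was not tested, and an exchange of the groups would turn the sign of every difference given here. Where the probes lie on the transcript was not used here, nor which part of Bmi1 the introduced sequence holds, so signal from the introduced and from the cells' own transcript cannot be told apart. In RNA from a bulk of cells, fewer cells of a type and less RNA per cell cannot be told apart either.

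The size of that difference was -0.86 on the log2 scale for 1417493_at (SE 0.286, 95% interval -1.49 to -0.23), with a limma adjusted p of 0.633. For 1448733_at it was -0.95 (SE 0.393, 95% interval -1.82 to -0.07), with an adjusted p of 0.901. Without a block 0 of the 15 member probe sets passed, and 0.0444% of all tested probe sets did. With the replicate number as a block, a term that compares arrays within each number, the differences stayed the same, their errors shrank to 0.162 and 0.226, and the limma adjusted p became 0.0376 for 1417493_at and 0.0851 for 1448733_at. With the block, 1 of 15 member probe sets passed, in a table in which 1.78% of all tested probe sets passed and 0.903% passed as lower in arrays labelled Bmi1. That one call rests on each pair: without pair 1 the difference was -0.67 with an adjusted p of 0.0650, and without pairs 2, 3 and 4 the adjusted p was 0.0680, 0.147 and 0.0883. With the block it was 0.126 when arrays were centred on all probe sets and 0.0550 without the filter on dim probe sets. With the 2 sets of replicate numbers as the block instead, the limma adjusted p of 1417493_at was 0.227.

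An exact permutation test over the 8 arrays gave a two-sided p of 0.0857 for 1417493_at and of 0.114 for 1448733_at, where the smallest p that 4 against 4 arrays allow is 0.0286. The exact paired test gave 0.125 for each probe set, which is the smallest p that 4 pairs allow. Within replicates 1 and 2 the difference of 1417493_at was -0.97, and within replicates 3 and 4 it was -0.74. For 1448733_at these differences were -1.16 and -0.73. The interaction of replicate set and group had a limma adjusted p of 0.99995 for both probe sets, and it passed for 0 of the 27022 probe sets, of which 727 had an unadjusted p under 0.05.

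**Figure D1:**
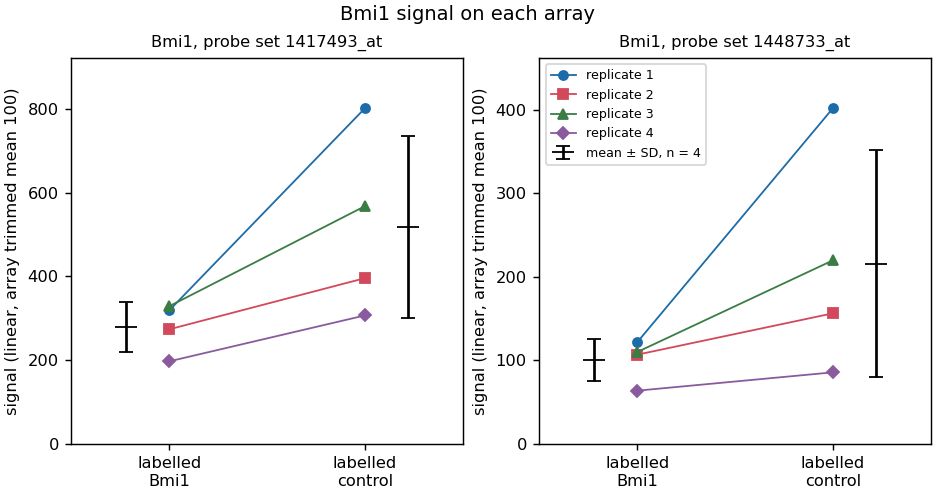
Bmi1 signal (linear, y axis from 0) of both probe sets on the 4 arrays labelled Bmi1, left, and the 4 arrays labelled control, right. Lines join arrays of one replicate number and black marks give mean ± SD (n = 4). Every line climbs to the right, most steeply in replicate 1 (318 labelled Bmi1, 802 labelled control on 1417493_at).

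Control replicate 1, the array with the most Bmi1 signal, stood apart in other measures as well. The summed signal of 11 fibroblast, stellate and other mesenchymal markers was 4866, 9081, 5702 and 3771 on arrays labelled Bmi1, against 16549, 10041, 6416 and 5467 on arrays labelled control, so it too was lower in the labelled Bmi1 array of every pair. Between 8 and 11 of the 11 markers were above background per array. The collagen gene Col3a1 read 21.0, 322, 37.0 and 86.3 on the arrays labelled Bmi1, against 2300, 353, 112 and 19.2 on the arrays labelled control. In pair 4 it was higher on the array labelled Bmi1, as were Col1a1 and Col1a2, unlike the sum. Vim was higher on the array labelled Bmi1 in pairs 2 and 3, and Thy1 in pairs 2, 3 and 4. So were Pdgfrb and, barely, Des in pair 2, and Lum and Dcn in pair 3. Acta2 and Tagln were lower in all 4 pairs. The ratio of the 3′ to the 5′ Gapdh probe set, a measure of RNA integrity and amplification length, was 3.10 on control replicate 1 and between 1.65 and 1.96 on the other 7 arrays. The same ratio for Actb did not set control replicate 1 apart, at 1.68, inside the range of the other arrays. The Actb ratio was higher on replicates 3 and 4 of both groups. It was lower on Bmi1 replicates 1 and 2 and control replicate 2. Without control replicate 1 the limma difference of 1417493_at was -0.64 (adjusted p = 0.817) and that of 1448733_at was -0.60 (adjusted p = 0.947). Their part in the Bmi1 difference was not tested.

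The other marker lists were read in the same way. The hepatoblast and hepatocyte sum ran between 23449 and 36910 on arrays labelled Bmi1 and between 24328 and 36582 on arrays labelled control. Within it, Epcam and Cdh1 were higher on arrays labelled Bmi1 without overlap. Dlk1 and Foxa2 were higher in the labelled Bmi1 array of all 4 pairs and Apoa1 lower, while the rest varied by pair. The endothelial sum ran between 240 and 350 on arrays labelled Bmi1 and between 114 and 233 on arrays labelled control, and Egfl7 supplied most of it, with 192 to 314 on arrays labelled Bmi1 and 68.6 to 194 on arrays labelled control. Lyve1 too was higher, without overlap, at 5.32 to 10.7 on arrays labelled Bmi1 and 1.47 to 3.44 on arrays labelled control. It was above background on 4 arrays. Cdh5 read lower on the labelled Bmi1 array of all 4 pairs but was above background on only 2 arrays. Kdr and Stab2 overlapped between the groups. Pecam1 and Tek, both defining genes, were at or below background on all 8 arrays, and 2 to 4 of 7 markers were above it. The mesothelial sum ran between 889 and 940 on arrays labelled Bmi1 and between 673 and 852 on arrays labelled control, with 3 to 5 of 5 markers above background. Krt19, a keratin also made by bile duct cells, supplied most of it on every array but control replicate 1, at 753 to 864 on arrays labelled Bmi1 and 305 to 697 on arrays labelled control. The other mesothelial genes did not follow the sum. Wt1 read 10.7 to 14.3 on arrays labelled Bmi1 and 15.6 to 34.1 on arrays labelled control, and Msln was lower in the labelled Bmi1 array of all 4 pairs. Upk3b was mixed, higher in the labelled Bmi1 array of pairs 2 and 3 and lower in pairs 1 and 4. Gpm6a was higher in that of pair 3 and lower in the others. The macrophage and leukocyte sum ran between 665 and 2476 on arrays labelled Bmi1 and between 532 and 2796 on arrays labelled control, with 5 or 6 of 6 markers above background. The erythroid sum ran between 65.3 and 104 on arrays labelled Bmi1 and between 38.2 and 82.8 on arrays labelled control, with 2 or 3 of the 4 markers on the array above background. The part of these lists in the results was not tested.

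Pcgf2, the paralog that can take the place of Bmi1 in canonical complexes, was dim and did not pass in either direction. Its probe set 1420645_at read 23.1, 14.1, 19.8 and 18.6 on arrays labelled Bmi1, against 12.1, 29.2, 22.5 and 24.9 on arrays labelled control. The lowest array was control replicate 1 and the highest control replicate 2, so the arrays labelled Bmi1 lay inside the range of the controls. The difference was -0.20 (SE 0.306, 95% interval -0.88 to 0.47, limma adjusted p = 0.9998). The further Pcgf2 probe set, 1456330_at, read between 2.75 and 11.4 on arrays labelled Bmi1 and between 3.50 and 13.4 on arrays labelled control, was above background on 2 arrays labelled Bmi1 and on 1 labelled control, and was not tested.

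Pcgf1, which builds the variant complex with Kdm2b and Bcor on CpG islands, had a single probe set, close to background and not passing. 1427956_at read 10.03, 7.33, 15.7 and 13.02 on arrays labelled Bmi1, against 8.66, 15.4, 11.9 and 7.56 on arrays labelled control. The groups covered almost the same range, and 3 of 4 pairs were higher in the labelled Bmi1 array. The difference was 0.02 (SE 0.318, 95% interval -0.69 to 0.72, limma adjusted p = 0.9998).

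Pcgf3 and Pcgf5 stand in the same kind of variant complex, with Auts2 or Fbrs. The bright Pcgf3 probe set 1428423_at read 452, 508, 513 and 476 on arrays labelled Bmi1, against 564, 453, 492 and 507 on arrays labelled control. These 8 values lay close together and were split evenly, 2 pairs higher and 2 lower. The difference was -0.09 (SE 0.165, 95% interval -0.45 to 0.28, limma adjusted p = 0.9998), and its sign turned to 0.01 when arrays were centred on all probe sets. The dimmer 1440203_at read 21.8, 16.5, 25.2 and 15.3 on arrays labelled Bmi1, against 22.05, 8.59, 22.7 and 10.4 on arrays labelled control, a difference of 0.27 (SE 0.338) with overlapping groups. The third probe set, 1428424_at, reached 7.97 at most on arrays labelled Bmi1 and 5.78 at most on arrays labelled control and was not tested.

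For Pcgf5, 1429564_at read 278, 355, 348 and 327 on arrays labelled Bmi1, against 257, 345, 309 and 314 on arrays labelled control. Each pair was slightly higher in its labelled Bmi1 array, with ratios between 1.03 and 1.13, while the groups overlapped. The difference was 0.05 (SE 0.193, 95% interval -0.37 to 0.48, limma adjusted p = 0.9998). Probe set 1434666_at read 351, 303, 150 and 188 on arrays labelled Bmi1, against 302, 227, 175 and 148 on arrays labelled control, so its values followed the replicate number more than the label. The dim 1453636_at read 63.5, 20.4, 9.46 and 13.9 on arrays labelled Bmi1, against 37.3, 22.2, 14.1 and 14.6 on arrays labelled control, with the highest value in replicate 1 of each group. Their differences were 0.14 (SE 0.279) and -0.01 (SE 0.457), and the sign of the last one turned in 16 of 28 other settings.

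Pcgf6, the PCGF protein of the complex with Mga, Max, E2f6 and L3mbtl2, had the largest difference among the bright probe sets of the paralogs. 1424081_at read 326, 322, 352 and 370 on arrays labelled Bmi1, against 207, 237, 367 and 330 on arrays labelled control. Control replicates 1 and 2 were low, and control replicates 3 and 4 lay inside the range of the arrays labelled Bmi1. The difference was 0.25 (SE 0.239, 95% interval -0.28 to 0.78) with a limma adjusted p of 0.9998, and of 0.498 with the replicate block. Dim probe set 1454120_a_at ran between 9.77 and 26.0 on arrays labelled Bmi1 and between 9.05 and 24.3 on arrays labelled control. Dim probe set 1432108_at ran between 9.07 and 17.1 on arrays labelled Bmi1 and between 6.47 and 18.2 on arrays labelled control. Their differences were 0.11 (SE 0.345) and -0.10 (SE 0.306), and neither passed.

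The RING ligases carry the catalytic activity of every form of the complex, and neither passed. Ring1, at 1422647_at, read 79.2, 101, 106 and 115 on arrays labelled Bmi1, against 62.3, 95.3, 112 and 121 on arrays labelled control. Replicate 1 was lowest and replicate 4 highest in both groups, with the labelled Bmi1 array higher in pairs 1 and 2 and lower in pairs 3 and 4. The difference was 0.03 (SE 0.278, 95% interval -0.59 to 0.64, limma adjusted p = 0.9998).

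Rnf2, the ligase found in most of these complexes in embryonic cells, read 1044, 807, 949 and 926 at 1424873_at on arrays labelled Bmi1, against 806, 715, 891 and 843 on arrays labelled control. All 4 pairs were higher in the labelled Bmi1 array, with ratios between 1.06 and 1.30, and the groups overlapped. The difference was 0.15 (SE 0.163, 95% interval -0.21 to 0.51, limma adjusted p = 0.9998, or 0.572 with the replicate block). Probe set 1451519_at read 311, 296, 417 and 426 on arrays labelled Bmi1, against 234, 253, 458 and 424 on arrays labelled control, a difference of 0.08 (SE 0.293). The remaining Rnf2 probe sets, 1448041_at, 1448042_s_at and 1448043_x_at, have no accession in the annotation read at most 13.1 on any array, and were not tested.

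**Figure D2:**
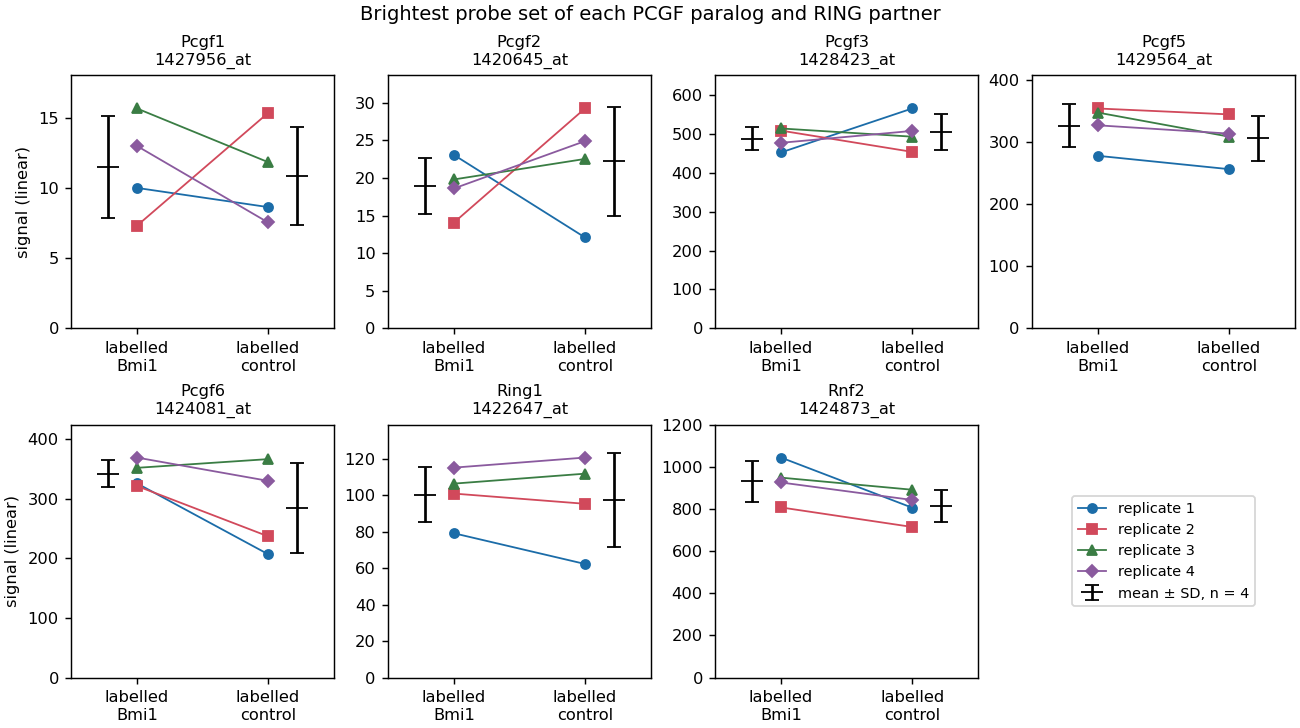
Signal (linear, each y axis from 0) of the brightest probe set of the 5 paralogs and 2 RING partners on arrays labelled Bmi1, left, and arrays labelled control, right. Lines join arrays of one number and black marks give mean ± SD (n = 4). All lines fall to the right for Pcgf5 and Rnf2, and the groups overlap in each panel.

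Across the 15 tested member probe sets, 9 differences were positive and 6 negative, with a median of 0.03, and the median of all tested probe sets was -0.02. The groups did not overlap on 0 of the 15, where 3.32% of all tested probe sets had groups that did not overlap. On the centred log2 scale 2 of 15, both of Bmi1, were lower in the labelled Bmi1 array of all 4 pairs, and 12.0% of all tested probe sets were. Likewise 2 of 15, Pcgf5 1429564_at and Rnf2 1424873_at, were higher in all 4 pairs, and 10.2% of all tested probe sets were. The members' shares are close to those of the whole table.

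**Figure D3:**
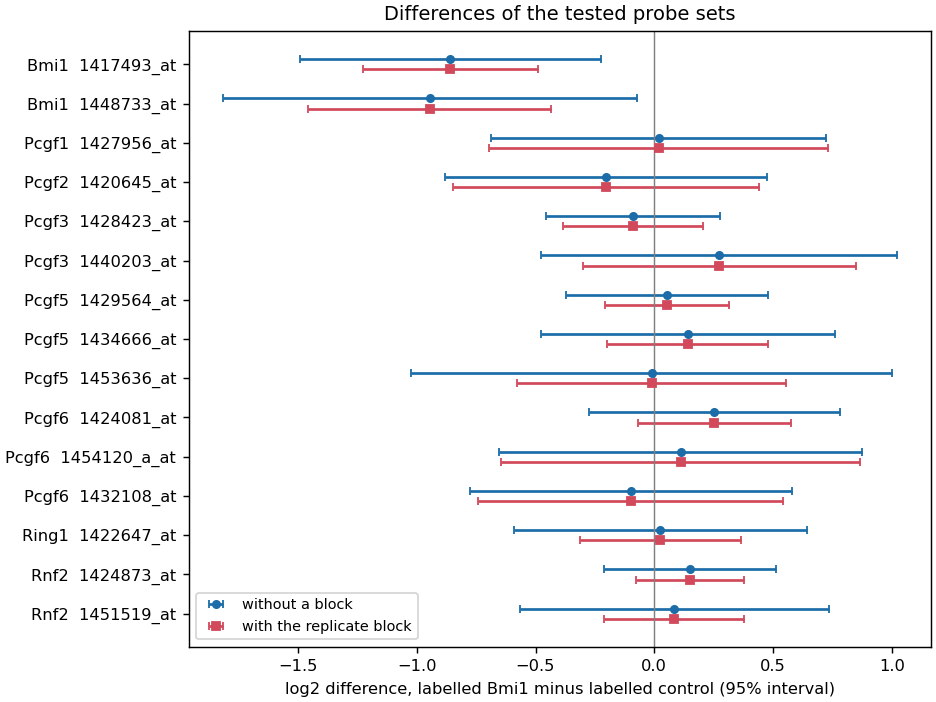
Log2 difference (labelled Bmi1 minus labelled control, x axis) with its 95% interval for the 15 tested member probe sets, by limma without a block (circles) and with the replicate block (squares). Only the Bmi1 intervals leave out 0, at -0.86 and -0.95, and 1417493_at alone had an adjusted p under 0.05, with the block (0.0376).

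Whether Bmi1 differed by another amount than its paralogs and partners was tested within arrays, on the log2 difference between 1417493_at and the brightest probe set of each other gene, which does not depend on centring. Relative to Rnf2, Bmi1 differed by -1.01 between the groups, with an exact two-sided permutation p of 0.0286 and of 0.150 after adjustment over the 7 genes, and lower in 4 of 4 pairs. Relative to Pcgf6 the value was -1.11 (exact p = 0.0857, adjusted 0.150), also in 4 of 4 pairs. Relative to Pcgf5 it was -0.91 (exact p = 0.0571, adjusted 0.150), and relative to Pcgf3 -0.77 (exact p = 0.0857, adjusted 0.150), in 4 of 4 pairs each.

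Relative to Ring1 the value was -0.88 (exact p = 0.171, adjusted 0.200), in 4 of 4 pairs. The dim paralogs gave -0.88 for Pcgf1 (exact p = 0.114, adjusted 0.160) and -0.65 for Pcgf2 (exact p = 0.286, adjusted 0.286), in 3 of 4 pairs each. None of the 7 passed after adjustment, and with 4 arrays a group no adjusted p under 0.05 could be reached unless several genes had the smallest possible p at once. Without control replicate 1 the value against Rnf2 was -0.77 (exact p = 0.0286, adjusted 0.200) and that against Pcgf2 was -0.19. Without control replicate 4 the values against Pcgf3, Pcgf5, Pcgf6 and Rnf2 were -0.99, -1.14, -1.41 and -1.25. Each of these had an exact permutation p of 0.0286 and an adjusted p of 0.05, on the threshold and not under it.

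**Figure D4:**
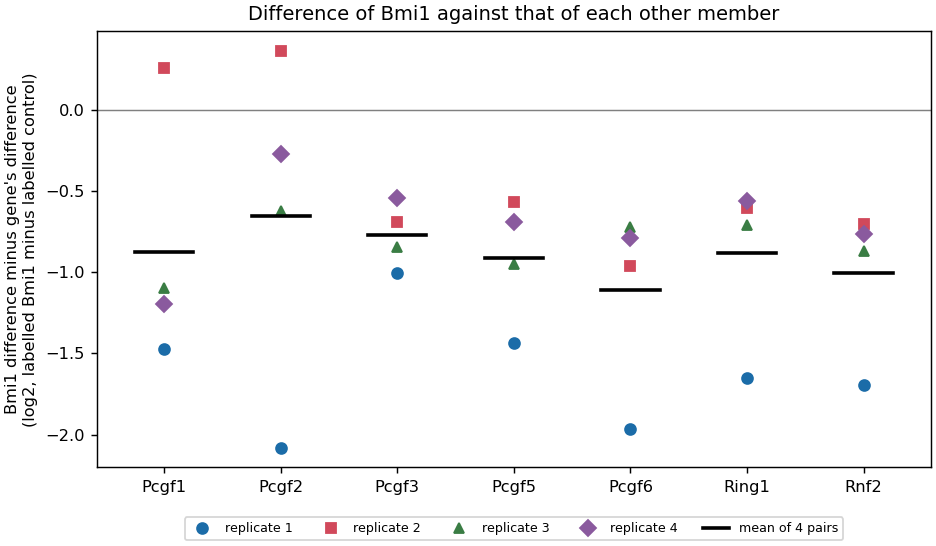
For each other member, the log2 difference of Bmi1 (labelled Bmi1 minus labelled control) minus that of the member, by pair (symbols) and as the mean of 4 pairs (bar). The means lie between -1.11 for Pcgf6 and -0.65 for Pcgf2, replicate 1 lies lowest in every column, and replicate 2 is above 0 for Pcgf1 and Pcgf2.

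With replicates 3 and 4 set against replicates 1 and 2 over both labels, 4 of 15 member probe sets passed in limma, where 26.7% of all tested probe sets passed. The members' share equals that of the whole table, so the values below describe these probe sets and are no result particular to the members. Rnf2 1451519_at was higher in replicates 3 and 4, at a mean of 431 ± 18.2, against 274 ± 36.3 in replicates 1 and 2 (SD, n = 4 each), a log2 difference of 0.79 with a limma adjusted p of 0.00347. Pcgf6 1424081_at was higher at 355 ± 17.9 in replicates 3 and 4, against 273 ± 60.0 in replicates 1 and 2 (0.53, limma adjusted p = 0.0266). Pcgf5 went the other way on 2 of its probe sets.

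Pcgf5 1434666_at averaged 165 ± 19.8 in replicates 3 and 4 and 296 ± 51.1 in replicates 1 and 2 (-0.68, limma adjusted p = 0.0136). Pcgf5 1453636_at averaged 13.02 ± 2.39 in replicates 3 and 4 and 35.8 ± 19.9 in replicates 1 and 2 (-0.99, limma adjusted p = 0.0463). The bright Pcgf5 probe set 1429564_at did not move with them, at 0.22 with an adjusted p of 0.342, and the brighter Rnf2 probe set gave 0.24 with 0.138. The call was thus not shared by all probe sets of a gene. Ring1 gave 0.57 with an adjusted p of 0.0561, and the Bmi1 probe sets gave -0.19 and -0.51 with adjusted p-values of 0.640 and 0.306.

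**Figure D5:**
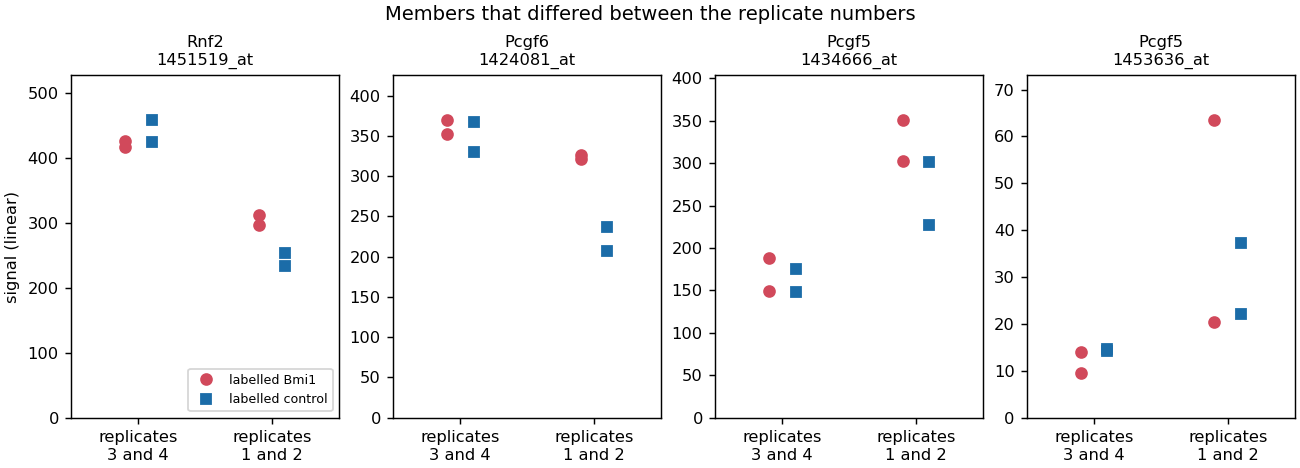
Signal (linear, y axes from 0) of the 4 member probe sets that passed between replicates 3 and 4, left, and replicates 1 and 2, right, with arrays labelled Bmi1 as circles and arrays labelled control as squares. Rnf2 1451519_at and Pcgf6 1424081_at lie higher in replicates 3 and 4, and both Pcgf5 probe sets lie lower.

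The subunits that join the members were read from lists of other Polycomb genes, each gene by its brightest probe set. None passed in limma without a block, and with the replicate block 2 did, Epop and Mapkapk3, in a table in which 1.78% of probe sets passed. With the block, neither passed when pair 1, 3 or 4 was left out or without the filter on dim probe sets, and without pair 2 Epop alone passed. Of 31 further subunits of the PRC1 complexes, 22 had a positive and 9 a negative difference, where 46.9% of all tested probe sets were positive. Their median was 0.17, where the median of all 12694 genes in this reading was -0.0031. The counts were 26 and 5 without centring, where 53.4% of all probe sets were positive. Without control replicate 1 they were 19 and 12, where 44.8% of all probe sets were. The 50.6% of genes also stands beside the counts of the lists below, which were the same with the filter over genes. Max, which partners Mga in the Pcgf6 complex, read 8.07 ± 4.98 in arrays labelled Bmi1 and 18.1 ± 2.23 in arrays labelled control (SD, n = 4 each), a dim signal with a difference of -1.01 (adjusted p = 0.650). Kdm2b, the subunit that brings the Pcgf1 complex to unmethylated CpG islands, read 628 ± 86.7 in arrays labelled Bmi1 and 420 ± 33.2 in arrays labelled control, a difference of 0.53 (adjusted p = 0.678).

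Polycomb repressive complex 2 (PRC2) places methyl groups on histone H3 and supplies the mark to which canonical PRC1 binds. Of its 13 listed subunits 10 had a positive and 3 a negative difference, with a median of 0.10. Epop, an accessory subunit, read 38.0, 19.3, 81.0 and 69.3 on arrays labelled Bmi1, against 3.53, 10.02, 21.6 and 29.1 on arrays labelled control. It was higher in all 4 pairs while the groups overlapped, by 1.49 on the log2 scale (SE 0.567, limma adjusted p = 0.791, or 0.0414 with the replicate block). Its value on control replicate 1 lay below the background level of that array, 6.65. On control replicate 2 it lay close to the level there, 9.44. Lcor, whose locus also encodes an accessory subunit, read 692 ± 187 in arrays labelled Bmi1 and 554 ± 154 in arrays labelled control (0.28, adjusted p = 0.9998).

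Among regulators and partners of Bmi1 named in the literature, 5 of 10 tested genes had a positive and 5 a negative difference, with a median of 0.01. Mapkapk3, a kinase that phosphorylates Bmi1, read 139, 102, 71.6 and 128 on arrays labelled Bmi1, against 66.8, 62.6, 29.3 and 78.0 on arrays labelled control. It was higher in all 4 pairs, and only Bmi1 replicate 3 lay below the highest control, with a difference of 0.85 (SE 0.311, limma adjusted p = 0.734, or 0.0401 with the replicate block). Cbx5, a heterochromatin protein, read 442 ± 59.9 in arrays labelled Bmi1 and 323 ± 51.6 in arrays labelled control (0.41, adjusted p = 0.9998).

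Of 11 genes listed for the removal of ubiquitin from H2A or for opposing Polycomb, 7 had a positive and 4 a negative difference, with a median of 0.06. Kdm6b, which removes the PRC2 mark, read 255 ± 57.2 in arrays labelled Bmi1 and 346 ± 114 in arrays labelled control (-0.44, adjusted p = 0.9998). Men1, a Trithorax-complex subunit, read 195 ± 68.6 in arrays labelled Bmi1 and 133 ± 51.9 in arrays labelled control (0.52, adjusted p = 0.9998).

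As a description of the 8 arrays, the genes whose centred log2 values ran most like those of Bmi1 1417493_at were sought among 12693 genes. The other Bmi1 probe set had a Pearson correlation of 0.97 with it. The closest genes were Dnajc1 (0.96), Fam172a (0.95), Zfp91 (0.95), Cyp2j6 (0.95) and Psmd6 (0.94), and without the 2 arrays farthest from the median of Bmi1, which were control replicates 1 and 3, the values ranged between 0.72 and 0.85. Their Spearman correlations over all 8 arrays ran between 0.69 and 0.86. By deviations from the group means the closest were Dnajc1 and Tmem184c (0.99 each), Chmp1b, Bptf and Capn7 (0.98 each). All points share the same 8 arrays, and the genes were picked as the highest of many, so no test is given. The members' own correlations with Bmi1 by value ran between -0.50 for Pcgf6 1424081_at and 0.40 for Pcgf3 1428423_at. By deviations they ran between -0.65 for Pcgf2 1420645_at and 0.85 for Pcgf3 1440203_at.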

How the data were processed

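The authors deposited 1 linear intensity per probe set and array, for 45101 probe sets, and the 2% trimmed mean of every array was 100. Which software made them: not given in the sources used here. Gene symbols came from the platform annotation of the array: 34945 probe sets had 1 symbol, 932 several, and 9160 are unnamed here. The 64 control probe sets were left out of all tests. The scale was log2(value + 3.78), with a constant derived from the median of all values (the median over 4), so differences of dim probe sets are understated. Arrays were centred on the median of the tested probe sets, which differed by 0.25 between arrays, while the median of all probe sets differed by 0.70.

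The comparison of the groups used limma 3.58.1 (R 4.3.3): lmFit, then eBayes with a trend on intensity. Tests were two-sided at 0.05, with Benjamini-Hochberg adjustment over 27022 probe sets, and each difference is labelled Bmi1 minus labelled control. Single values were compared with exact permutation tests over the arrays. Precision is limited by the number of arrays, and p-values measure the spread between these 8. The model was tested on simulated data. The members, lists and tests were chosen with earlier results of these data known. Named from each list were the genes called, or the 2 with the smallest p, and with the block those it called.

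Between the arrays of numbers 1 to 4, deviations from their group means had correlations of 0.56, 0.33, 0.47 and 0.64, all over 0.1, so the numbers were taken to pair the arrays, on the data and not the labels. The difference between replicate sets stays in these deviations, so a value over 0.1 cannot tell pairing by number from membership of a set. Numbers 1 and 2 correlated at 0.40 across numbers, above the 0.33 of number 2 itself, and numbers 3 and 4 at 0.40. Results with the replicate block therefore rest on an unproven pairing. Alternatives were the replicate number or the replicate set as a block, other centring, pseudocounts, level filters and probe set rules, and leaving out arrays. The block combined with another choice, and the block without 1 pair, were chosen after seeing the data.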

Additional observations from a re-analysis of the deposited data

Results flagged for a closer look

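Among 40 sets of 4 same-label values of a member, 2 contained a value whose gap to the next, as a share of the group's range, passed Dixon's critical value, and chance gives about 1 in 20. Pcgf6 1432108_at read 17.1 on Bmi1 replicate 1 and 9.07 to 9.87 on the other arrays labelled Bmi1, a gap of 0.901 of the range. Rnf2 1448041_at read 13.1 on control replicate 2 and 1.12 to 1.43 on the other arrays labelled control, a gap of 0.974 of the range, on a probe set otherwise below background.

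Ring1 1422647_at was higher in the labelled Bmi1 array in replicates 1 and 2 and lower in replicates 3 and 4, and the difference in replicates 3 and 4 minus that in replicates 1 and 2 was -0.271 on the uncentred log2 scale. In limma, on the centred scale, that interaction was -0.26 with an adjusted p of 0.99995.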

How the results depend on the processing

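Without a block, 12 probe sets were called. The count was 481 with the replicate block and 203 with the replicate set as a block, 0 within replicates 1 and 2, 0 within replicates 3 and 4 (1440 and 2098 at an unadjusted p under 0.05), 4 without a level filter, 23 with the brightest probe set per gene, and 0 to 14 leaving out 1 array. With the block, it was 394 with the brightest probe set per gene, 510 without centring, 561 centred on all probe sets, 423 with quantile normalisation, 293 without a level filter, 456 and 495 with the pseudocount divided or multiplied by 2, and 293, 221, 115 and 235 without pairs 1 to 4. Higher and lower calls were 7 and 5 without a block, 7 and 3 without centring, 6 and 7 centred on all probe sets and 8 and 2 with quantile normalisation. With the block they were 237 and 244, and 342 and 219 centred on all probe sets. With centring on all probe sets the median difference was 0.08 and the share of positive differences to 62.1%, against -0.02 and 46.9%.

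Member probe sets called were 0 in all settings without the block and 1, Bmi1 1417493_at, in 6 with it: -0.86 with the block alone and with the brightest probe set per gene, -0.82 without centring and with quantile normalisation, -0.86 and -0.85 with the smaller and larger pseudocount. The call was lost with the block centred on all probe sets (adjusted p = 0.126), without a level filter (0.0550) and without each pair. Its difference ran from -1.05 to -0.64 over 31 alternatives, and the adjusted p from 0.227 to 0.9999 without the block and from 0.0309 to 0.147 with it. Other Polycomb genes called were 0 without a block, 1 with the replicate set as a block, 2 with the replicate block in 7 settings and 1 without pair 2. Epop and Mapkapk3 were the 2 with the block alone. Under the other settings of the exact test that exchange arrays, 0 members differed from Bmi1 at an adjusted p under 0.05. Without control replicate 4, Pcgf3, Pcgf5, Pcgf6 and Rnf2 lay on that threshold, each at an adjusted p of 0.05 in the exact permutation test. The paired exact test has no call to give, since 4 pairs allow no p under 0.125.

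Signs of uncalled members turned as follows, and the cause was not tested. Within replicates 1 and 2, Pcgf1 gave -0.36 and Pcgf5 1453636_at 0.26. Within replicates 3 and 4, Pcgf6 1432108_at gave 0.10, Ring1 -0.11 and Rnf2 1451519_at -0.10. Centred on all probe sets, with or without the block, Pcgf3 1428423_at gave 0.013, Pcgf5 1453636_at 0.090 and Pcgf6 1432108_at 0.0026. With quantile normalisation, with or without the block, the last 2 gave 0.13 and 0.019. Pcgf5 1453636_at gave 0.031 without centring and 0.0061 with the larger pseudocount, with or without the block. With the mean of a gene's probe sets, Pcgf3 gave 0.10 and Rnf2 -0.19. With the block and without pair 1, Pcgf3 1428423_at gave 0.025, Pcgf6 1454120_a_at -0.18 and Ring1 -0.038. Without pair 2, Pcgf2 gave 0.019, Pcgf5 1453636_at 0.014 and Pcgf6 1432108_at 0.0090. Without pair 3, Pcgf1 gave -0.067 and Pcgf5 1453636_at 0.14. Without pair 4 they gave -0.15 and 0.015. Leaving out 1 array gave -0.13 to 0.16 for Pcgf1 1427956_at, -0.051 to 0.17 for Pcgf5 1429564_at, -0.0047 to 0.33 for Pcgf5 1434666_at, -0.44 to 0.27 for Pcgf5 1453636_at, -0.062 to 0.33 for Pcgf6 1454120_a_at, -0.27 to 0.048 for Pcgf6 1432108_at, -0.19 to 0.18 for Ring1 1422647_at and -0.10 to 0.26 for Rnf2 1451519_at.

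Signals near background limit Pcgf1, Pcgf2 and the dim probe sets, whose differences are understated on this scale.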
